A study of Homo sapiens with 29 samples.

Results

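RNA of DHL4 cells after 6 h under R406 was set against RNA of the same cells after 2 h, with 3 arrays at each time, 6 of the 29 arrays of the series. The arrays were chosen by their sample titles alone, and all 12165 genes with a named probe set were followed. DHL4 is an established human cell line grown from a diffuse large B-cell lymphoma, a tumour that arises from mature B cells. The drug, R406, inhibits the tyrosine kinase SYK and was given at 1 µM in RPMI medium with fetal calf serum and glutamine. Both groups carried R406 and differed in its duration. A longer time under R406 was also a longer time in culture, and these cannot be told apart. Beside it stand the same times in DHL6, a second line of this lymphoma, with 3 arrays each, and the solvent DMSO, with 2 arrays in DHL4 and no time in the labels. Whether the 3 arrays of a group were separate cultures is not stated, so p-values rest on a spread between arrays that may be technical. Values are log2 expression on an Affymetrix array, and changes are log2 differences ± the standard error (SE) of the limma fit, 6 h minus 2 h. A gene was called at an adjusted p below 0.05. Each gene was read on its brightest probe set. Of the 90 called genes named here with more than 1 set, 34 had no other set called that way. In bulk RNA, fewer cells that express a gene and less RNA per cell cannot be told apart.

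SYK is recruited to the B-cell receptor when the receptor signals, and passes the signal on to calcium, to RAS and ERK, and to PI3K with AKT and mTORC1 behind it. AKT holds the FOXO transcription factors out of the nucleus, and mTORC1 supports ribosome synthesis, lipid synthesis and the translation of ATF4. ATF4 is a transcription factor that turns on genes for making amino acids, carrying them into the cell and loading them onto tRNA. It is best known from cells short of amino acids or with unfolded protein in the endoplasmic reticulum (ER).

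The B-cell identity of the arrays was seen in CD79A and CD79B, the signalling chains of the B-cell receptor, with means of 8.83 and 9.3 at 6 h and 8.71 and 9.08 at 2 h. PAX5, a B-cell transcription factor, lay at the lower end of the scale (2.76 at 6 h, 2.88 at 2 h). All 11 monocyte and macrophage markers stayed between 2.53 and 3.27 on the 6 arrays, and 0 of them were called. Not all other markers were so low. The 11 T cell markers had means of 3.07 to 3.27 per array, but the highest member read 5.73 to 6.54. The highest of 12 fibroblast and endothelial markers, DCN, described below, read 6.39 to 6.52 at 6 h and 8.33 to 8.49 at 2 h. Replicate DHL4 arrays at these times correlated at 0.985 or above across genes, but the third 2 h array stood apart. Its upper quartile was 5.41, against 5.75 and 5.79 on the other 2 h arrays and 5.86 to 5.94 at 6 h. The third DHL6 array at 6 h showed the same compression, with an upper quartile of 5.50. The part of such a scale difference in single results was not tested, so results that rest on the third 2 h array are given with and without it.

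Between 2 h and 6 h, 1419 of the 12165 genes (11.7%) were called. Of these, 1018 (8.37%) were higher at 6 h and 401 (3.3%) were lower, while the median change of all genes was 0.007. The shares of 8.37% and 3.3% are the background for the counts of list members in DHL4 given below. At least a 2-fold change was seen in 200 of the higher and 47 of the lower genes. In 1001 of the 1018 and 391 of the 401, the 3 arrays of one time did not overlap those of the other, which was so for 19.1% (higher) and 12.7% (lower) of all genes. The excess of rises depended on scaling: 71.7% of calls were higher as deposited, 53.5% after quantile normalization (717 higher, 623 lower) and 67.2% without the third 2 h array (537 higher, 262 lower). That array was the lowest at 2 h in 737 of the 1018 rises, and in 5342 of all 12165 genes. Without it all 1419 calls kept their sign, and 528 of the rises and 218 of the falls were still called. In all 3 settings, 470 genes were called higher and 210 lower.

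Genes of amino acid supply fell together between 2 h and 6 h. Of the 30 measured genes in a list of amino acid stress genes and ATF4 targets, 15 fell and 2 rose, with a list median of -0.48. The members that fell make amino acids (ASNS, PSAT1, SHMT2, CTH), carry them across the membrane (SLC7A5, SLC7A1), charge them onto tRNA (WARS1, GARS1, AARS1, SARS1, CARS1) or run mitochondrial one-carbon and phosphoenolpyruvate steps (MTHFD2, PCK2). The other members that fell were the transcription factors ATF4 and ATF5. At 2 h these genes still lay near DMSO: 2 of the 30 were lower and 0 higher at 2 h than in DMSO, where 9.48% of all genes were called (6.81% lower, 2.67% higher). At 6 h, 19 were lower and 1 was higher than in DMSO, where 12.8% of all genes were called (6.36% lower, 6.42% higher). The last comparisons share arrays with each other and with 6 h minus 2 h, and are given side by side only.

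The promoters of the members are shown because an ATF4 site belongs to the textbook account of these genes. The composite site of ATF4 with a C/EBP partner was searched as TGATGNAA, on both strands, in the 250 bases before each RefSeq gene start (GRCh38.p14, 5′ to 3′ on the strand of the gene). It was present in 3.14% of 35116 windows and in 3.02% of the 9711 measured genes with a window. Of 26 list members with a window, 6 held it: ASNS, AARS1 and GARS1, which fell, and CHAC1, CEBPG and SLC1A5, which were not called. Capitals mark the match, which reads as the reverse complement where it lies on the other strand, as in AARS1 and GARS1. ASNS and GARS1 have 2 annotated starts each, 1 of them with the motif.
ASNS, chr7:97872409-97872658, minus strand: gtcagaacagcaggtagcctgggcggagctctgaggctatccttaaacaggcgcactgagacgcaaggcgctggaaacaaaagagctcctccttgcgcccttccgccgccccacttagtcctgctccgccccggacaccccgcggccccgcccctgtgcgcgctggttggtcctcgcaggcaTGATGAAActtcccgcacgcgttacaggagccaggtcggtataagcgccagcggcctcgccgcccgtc
AARS1, chr16:70289507-70289756, minus strand: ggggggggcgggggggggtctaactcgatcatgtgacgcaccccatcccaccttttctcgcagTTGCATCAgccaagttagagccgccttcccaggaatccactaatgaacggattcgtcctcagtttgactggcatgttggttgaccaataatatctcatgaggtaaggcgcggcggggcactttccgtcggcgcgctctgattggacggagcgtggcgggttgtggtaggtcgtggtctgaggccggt
GARS1, chr7:30594628-30594877, plus strand: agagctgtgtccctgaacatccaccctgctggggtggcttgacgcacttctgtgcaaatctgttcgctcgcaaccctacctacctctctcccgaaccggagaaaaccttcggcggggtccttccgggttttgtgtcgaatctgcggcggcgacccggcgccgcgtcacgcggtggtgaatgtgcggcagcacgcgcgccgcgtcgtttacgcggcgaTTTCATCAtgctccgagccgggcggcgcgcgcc
A match describes these letters in this window and shows no binding. Among all genes lower at 6 h, 4.86% held the motif (16 of 329 with a window), and among those higher, 2.38% (21 of 883). Within the list, 3 of the 14 members that fell held it (21.4%), beside 6 of all 26 (23.1%). In the list the motif was thus no commoner among the falls.

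ATF5, a transcription factor whose own mRNA is under ATF4, showed the largest fall of all genes whose arrays did not overlap. It read 4.94, 5.1 and 5.01 on the 6 h arrays, against 8.03, 7.73 and 8.25 on the 2 h arrays, a change of -2.99 ± 0.28 (adjusted p = 6.08e-08) or 7.92-fold lower. All 6 h arrays lay below all 2 h arrays by a wide gap, and DMSO read 7.38 and 7.36. Another probe set of ATF5 fell by 1.80, and the remaining one was not called (0.10, adjusted p = 0.776 over all probe sets). The mean of the 3 sets changed by -1.56.

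ASNS, asparagine synthetase, read 8.7, 8.88 and 8.81 at 6 h, against 10.15, 10.14 and 10.09 at 2 h. The groups were far apart relative to their spread, and the change was -1.33 ± 0.09 (adjusted p = 5.93e-10), 2.52-fold lower. PSAT1, of the serine pathway, read 5.55, 5.32 and 5.33 at 6 h, against 7.22, 7.39 and 6.63 at 2 h (-1.68 ± 0.21, adjusted p = 6.21e-06). Its lowest 2 h value came from the third array, and the change was -1.9 without it. MTHFD2 changed by -1.13 ± 0.11, PCK2 by -1.42 ± 0.18, CTH, the last enzyme of cysteine synthesis, by -1.1 ± 0.21, and SHMT2 by -0.48 ± 0.10. CTH and PCK2 were dim at 6 h, with means of 3.73 and 3.87, where the array scale understates changes. The other probe set of CTH, at -0.22, was not called.

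Outside the list, 2 further genes of amino acid metabolism stood among the 15 largest falls. CBS, which makes cystathionine from homocysteine and serine, read 3.55, 3.79 and 3.46 at 6 h, against 5.78, 5.4 and 5.48 at 2 h (-1.95 ± 0.17, adjusted p = 2.98e-08). BCAT1, which transfers amino groups of leucine, isoleucine and valine, read 4.42, 4.23 and 3.92 at 6 h, against 5.92, 6.2 and 5.55 at 2 h (-1.7 ± 0.27, adjusted p = 0.00011). In both genes every 6 h array lay below every 2 h array, as the naming rule for the largest falls required. DMSO was close to 2 h (5.46 and 6.12).

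Among transporters, SLC7A5, the light chain of the LAT1 carrier for leucine and other large amino acids, read 5.61, 5.47 and 5.77 at 6 h, against 6.88, 7.16 and 7.25 at 2 h (-1.48 ± 0.17, adjusted p = 1.46e-06). SLC7A1, a carrier of arginine and lysine, changed by -1.05 ± 0.10; the mean of its 6 probe sets changed by -0.44. SLC3A2, the heavy chain that pairs with SLC7A5, changed by -0.49 ± 0.21 and was not called as deposited (adjusted p = 0.139), but was after quantile normalization (-0.74, adjusted p = 0.00227). In the other direction SLC38A2, a carrier of small neutral amino acids, read 7.26, 7.1 and 7.23 at 6 h, against 6.57, 6.47 and 5.62 at 2 h (0.98 ± 0.17). DDIT4, an mTORC1 inhibitor that ATF4 and other factors induce, rose by 1.03 but stayed below DMSO, with means of 7.64 in DMSO, 4.81 at 2 h and 5.83 at 6 h.

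Of the 17 measured aminoacyl-tRNA synthetases in this list and the next, 10 fell, 0 rose and 7 were not called. WARS1, which charges tryptophan, read 6.27, 6.11 and 6.11 at 6 h, against 7.82, 7.89 and 7.81 at 2 h (-1.68 ± 0.13, adjusted p = 1.02e-08). GARS1, for glycine, read 9.41, 9.48 and 9.4 at 6 h, against 10.64, 10.77 and 10.66 at 2 h (-1.26 ± 0.09, adjusted p = 5.86e-10). AARS1, for alanine, changed by -1.22 ± 0.14, and SARS1 and CARS1, for serine and cysteine, by -0.51 and -0.60. In none of these 5 synthetases did the 3 arrays of one time reach into those of the other.

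A separate list of translation factors and further synthetases had 1 member that rose and 7 that fell among 23 measured, with a median of -0.22. EIF4EBP1, the translation repressor that mTORC1 switches off and ATF4 induces, read 6.01, 6.01 and 5.81 at 6 h, against 6.82, 7.2 and 7.37 at 2 h (-1.19 ± 0.12, adjusted p = 1.78e-07). YARS1 changed by -1.1 ± 0.10, IARS1 by -0.76, MARS1 by -0.75, EPRS1 by -0.55 and NARS1 by -0.40. EIF2S2, a subunit of the initiation factor that brings the first tRNA, was at the edge of the threshold (-0.30, adjusted p = 0.0497) and was not called without the third 2 h array. EIF5 rose by 0.48. The synthetases not called were HARS1 (0.85, adjusted p = 0.0587), QARS1, RARS1, KARS1, LARS1, TARS1 and VARS1, the last 6 lying between -0.38 and 0.22. IARS1 alone of 18 members with a window held TGATGNAA before its start.

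Not every gene of the stress response moved. ATF4 itself changed by only -0.35 ± 0.09 (adjusted p = 0.0146), a call that was lost without the third 2 h array (adjusted p = 0.0674). DDIT3, the stress factor CHOP, changed by -0.21 (adjusted p = 0.541), TRIB3, a pseudokinase downstream of it, by 0.02 (0.972), and CHAC1, a glutathione-degrading enzyme, by -0.28 (0.47). TRIB3 was already below DMSO at 2 h: means were 6.57 in DMSO, 5.05 at 2 h and 5.07 at 6 h. CHAC1 lay near the lower end of the scale in all of them.

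**Figure D1:**
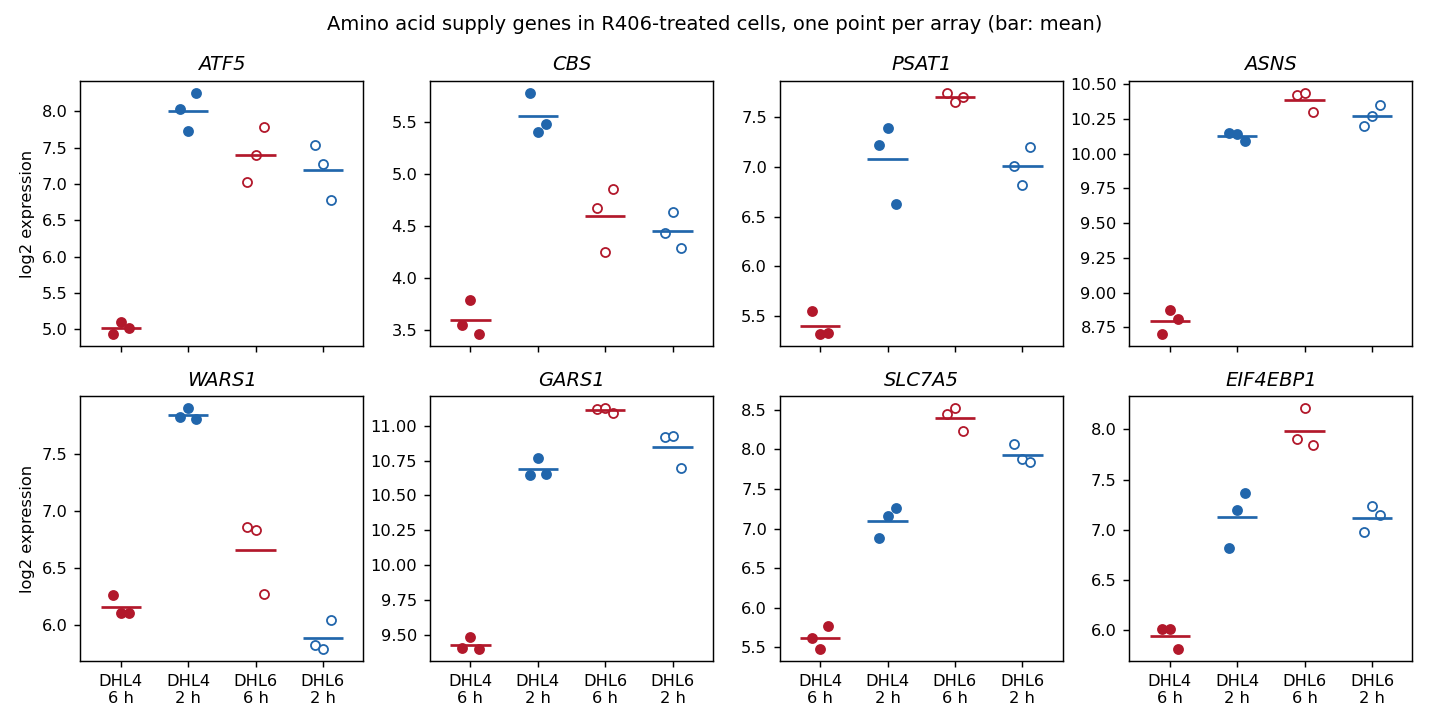
Log2 expression of 8 genes of amino acid supply, 1 point per array and a bar for the mean of 3, in DHL4 (filled) and DHL6 (open) after 6 h and 2 h of R406. In DHL4 every 6 h point lies below every 2 h point; in DHL6 no gene shows such a fall.

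DHL6 did not show these falls. In DHL6, 542 genes (4.46%) were called between the times, 229 (1.88%) higher and 313 (2.57%) lower at 6 h. Which direction was commoner turned with the scale: 205 were higher and 145 lower without the compressed 6 h array, and 395 and 392 after quantile normalization. Of the 30 list members 4 rose and 0 fell, with a median of 0.13. The difference of the changes, DHL4 minus DHL6, was tested in the same fit and called for 1051 genes (8.64%), 740 (6.08%) higher and 311 (2.56%) lower in DHL4. That split was 531 higher and 523 lower after quantile normalization, and 237 and 201 with both compressed arrays left out. Among the 30 members, 14 were called lower and 1 higher by that test, as were 7 and 0 of the 23 translation genes. ATF5 changed by 0.21 in DHL6 (difference -3.19 ± 0.39, adjusted p = 1.44e-05), ASNS by 0.11 (-1.45 ± 0.13, 1.25e-07) and GARS1 by 0.26 (-1.53 ± 0.12, 2.49e-08).

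WARS1 and EIF4EBP1 went opposite ways in the lines. WARS1 read 6.86, 6.83 and 6.28 at 6 h in DHL6, against 5.83, 5.79 and 6.05 at 2 h, a rise of 0.77 ± 0.13 (adjusted p = 0.000956), and the lines differed by -2.45 ± 0.19 (adjusted p = 2.49e-08). EIF4EBP1 rose by 0.87 ± 0.12 in DHL6 (adjusted p = 4.48e-05), and the lines differed by -2.05 ± 0.17 (2.75e-08). SLC7A5 and PSAT1 changed by 0.47 and 0.69 in DHL6, neither called, and differed between lines by -1.94 and -2.37. In DHL6 all 3 of the 6 h arrays of EIF4EBP1 were above all 3 of the 2 h arrays, while WARS1 had 1 lower 6 h array, the compressed one, still above the 2 h arrays.

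**Figure D2:**
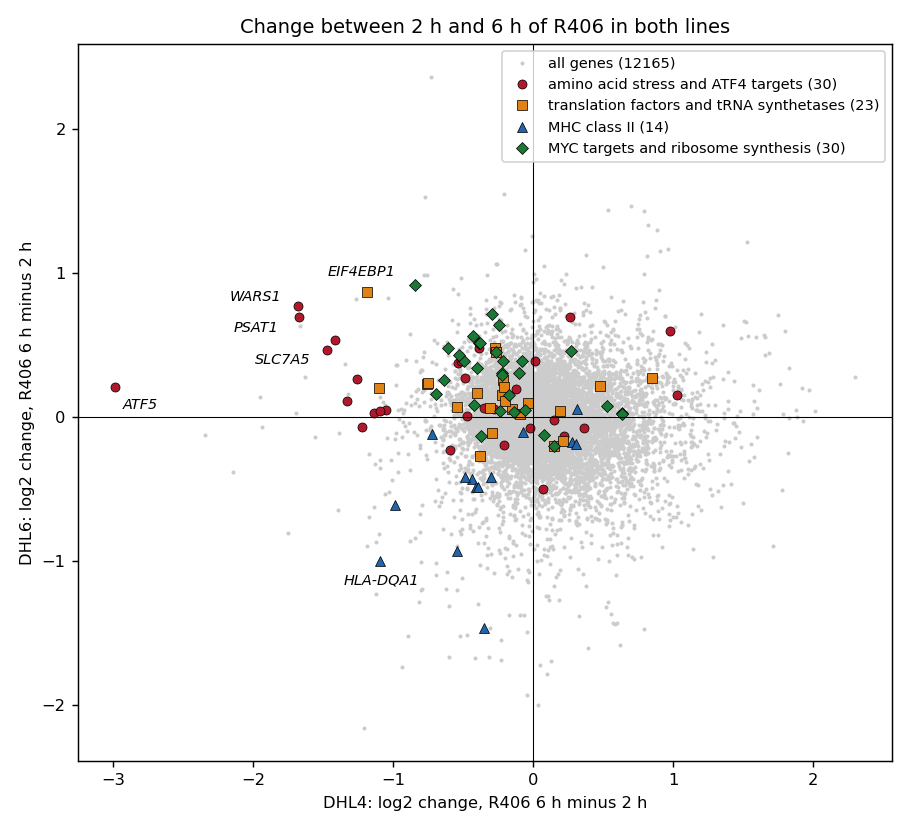
Change between 2 h and 6 h of R406 for 12165 genes, in DHL4 (horizontal axis) and DHL6 (vertical axis), in log2 units, with members of 4 gene lists marked. Most amino acid and tRNA genes called lower in DHL4 lie above 0 on the DHL6 axis, AARS1, CARS1 and EIF2S2 being exceptions, whereas most genes of MHC class II lie below 0 in both lines.

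Genes for making ribosomes and other MYC targets also held falls in DHL4 and none in DHL6 between the times. Unlike the amino acid list, many were already below DMSO at 2 h: 18 of 30 were lower and 0 higher (median -0.75). At 6 h, 22 were lower and 0 higher than in DMSO (median -0.99). Of all genes, 6.81% were called lower than DMSO at 2 h and 6.36% at 6 h. These comparisons share arrays and are given side by side only. Of 30 measured members 11 fell and 0 rose in DHL4 (median -0.24), whereas 7 rose and 0 fell in DHL6 (median 0.31), and the test of the difference called 11 lower and 0 higher in DHL4. NOP56, a protein of the particles that modify ribosomal RNA, read 8.26, 8.17 and 8.22 at 6 h, against 9.09, 8.92 and 8.73 at 2 h (-0.70 ± 0.11, adjusted p = 0.000104). SRM, spermidine synthase, read 7.49, 7.49 and 7.66 at 6 h, against 8.45, 8.28 and 8.45 at 2 h (-0.85 ± 0.23). It rose by 0.91 in DHL6, and its DHL4 call was lost without the third 2 h array (adjusted p = 0.0582). CDK4, a kinase of the G1 phase, changed by -0.61 ± 0.11 in DHL4 and 0.48 in DHL6, and the lines differed by -1.09 ± 0.15 (adjusted p = 6.17e-05). ODC1, the first enzyme of polyamine synthesis, changed by -0.53, and PPAN, a ribosome assembly factor, by -0.64. NPM1, a nucleolar chaperone, changed by -0.24, a call lost when any single array of DHL4 at 6 h or 2 h was left out and after quantile normalization.

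MYC itself was level between the times, at 8.68, 8.59 and 8.72 at 6 h, against 8.68, 8.75 and 8.6 at 2 h, a change of -0.02 with a 95% interval of -0.17 to 0.14. The arrays overlapped fully, and DMSO read 9.98 and 10.00. Of the 25 measured ribosomal proteins 0 were called in either line. In the MYC and MAX network 4 of 10 members rose and 0 fell: MAX, the partner of MYC, by 0.82 ± 0.15, and MXD3 and MXI1, which pair with MAX in its place, by 0.82 and 0.58. MLXIP, a glucose-sensing relative, rose by 0.66, but was not called after quantile normalization or without the third 2 h array. Its other probe set, at -0.33, was not called. MXI1 was not called without that array, and MXD3 was not after quantile normalization.

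The largest falls outside amino acid supply were in genes of unlike function. LIMA1, an actin-binding protein, read 4.31, 4.31 and 4.12 at 6 h, against 6.74, 6.53 and 6.5 at 2 h (-2.35 ± 0.21, adjusted p = 2.98e-08). IFI30, a lysosomal thiol reductase that prepares antigens for MHC class II, read 7.56, 7.54 and 7.53 at 6 h, against 9.8, 9.64 and 9.63 at 2 h (-2.15 ± 0.12, adjusted p = 2.76e-11). Both were still going down from an earlier fall: means in DMSO, at 2 h and at 6 h were 8.54, 6.59 and 4.24 for LIMA1 and 10.80, 9.69 and 7.54 for IFI30. HTR3A, a serotonin-gated channel subunit, took the same course, with means of 9.08, 7.27 and 5.71. MS4A1, which encodes the surface protein CD20, read 9.4, 9.31 and 9.32 at 6 h, against 10.48, 10.49 and 10.57 at 2 h (-1.17 ± 0.09, adjusted p = 8.06e-09), and also fell in DHL6 (-0.69 ± 0.09, adjusted p = 3.24e-05).

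DCN, which encodes the matrix proteoglycan decorin, read 6.39, 6.52 and 6.45 at 6 h, against 8.37, 8.33 and 8.49 at 2 h (-1.94 ± 0.16, adjusted p = 1.38e-08), and all 4 of its probe sets were called lower. DMSO read 8.34 and 8.51, close to 2 h, and DHL6 was at the lower end of the scale (2.79 at 6 h, 2.86 at 2 h). DCN is a fibroblast marker, and of the 12 fibroblast and endothelial markers 1 fell (DCN) and 1 rose (PECAM1, 0.80); the list mean was 3.29 to 3.37 at 6 h, against 3.43 to 3.51 at 2 h. The part of such cells in the fall of DCN was not tested. CHI3L2, a chitinase-like protein, changed by -1.75 ± 0.17, SLC20A1, a phosphate carrier, by -1.39 ± 0.16, NINJ2, a membrane adhesion protein, by -1.39 ± 0.17, and MAP3K7CL by -1.63 ± 0.27. CHI3L2 and SLC20A1 also fell in DHL6 (-0.81 ± 0.17 and -0.64 ± 0.16, adjusted p = 0.00413 and 0.0173).

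**Figure D3:**
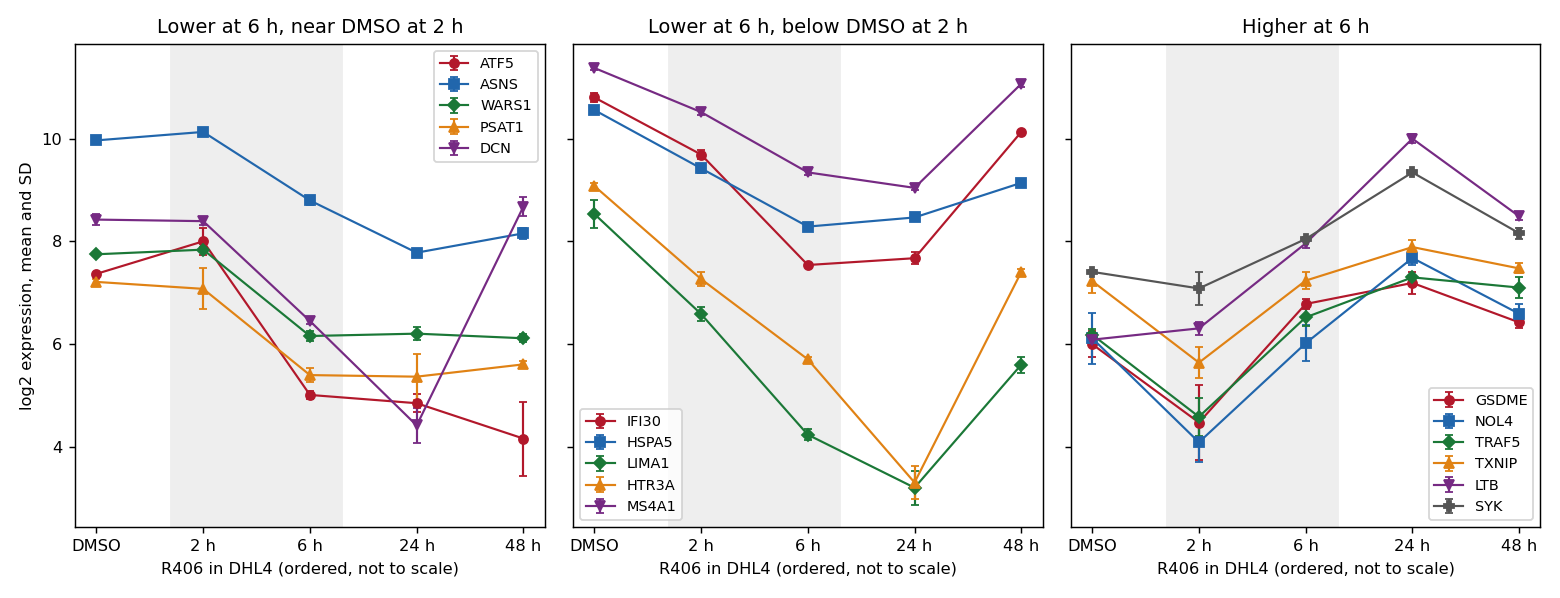
Mean log2 expression and SD over arrays in DHL4 in DMSO (2 arrays) and after 2, 6, 24 and 48 h of R406 (3 arrays each), with the 2 h and 6 h groups shaded. The left panel holds genes that were not called different from DMSO at 2 h and lower at 6 h, the middle panel genes already lower at 2 h, and the right panel genes higher at 6 h than at 2 h.

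Genes of antigen presentation by MHC class II fell in both lines. Of 14 measured genes 8 fell and 1 rose in DHL4 (median -0.40), and 9 fell and 0 rose in DHL6 (median -0.42), with 0 called lower and 1 called higher by the test of the difference. HLA-DQA1, an antigen-binding chain, read 6.56, 6.45 and 6.65 at 6 h, against 7.62, 7.74 and 7.59 at 2 h (-1.1 ± 0.16, adjusted p = 6.12e-05), and changed by -1.0 in DHL6. HLA-DQB1, its partner, changed by -0.99 ± 0.14, and HLA-DMB and HLA-DMA, which load peptides, by -0.54 and -0.49. The invariant chain CD74 changed by -0.72, a call lost without the third 2 h array (adjusted p = 0.0601), and HLA-DRA by -0.30. HLA-DMA and HLA-DMB came down from a level above DMSO: means in DMSO, at 2 h and at 6 h were 7.45, 8.32 and 7.83 for HLA-DMA and 8.47, 9.18 and 8.64 for HLA-DMB. The list as a whole did not share that course. Against DMSO, 2 of the 14 were higher and 1 lower at 2 h (median -0.04), and 1 higher and 4 lower at 6 h (median -0.21). Of all genes, 2.67% were higher and 6.81% lower than DMSO at 2 h, and 6.42% and 6.36% at 6 h. These comparisons share arrays and are given side by side only. RFX5, a factor that binds class II promoters, was the member that rose (0.28, adjusted p = 0.0495); without the third 2 h array, or after quantile normalization, 0 of the 14 rose. CIITA, the coactivator that switches class II genes on, was near the lower end of the scale and not called (0.31, adjusted p = 0.265).

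Of 12 measured genes of MHC class I, 3 fell and 2 rose. HLA-B changed by -0.92 ± 0.11 (adjusted p = 2.84e-06), HLA-C by -0.74 ± 0.14 and HLA-E by -0.37. TAP1 and TAP2, the pump that brings peptides into the ER, rose by 0.98 ± 0.19 and 1.03 ± 0.20; the other sets of TAP2, at 0.19 and -0.13, were not called. HLA genes have near-identical copies and several probe sets, so the split of signal between them is uncertain; the mean of the 14 sets of HLA-C changed by -0.28. HLA-E was not called without the third 2 h array.

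Chaperones of the ER formed another group of falls, with 7 lower and 1 higher among 23 measured genes (median -0.08). HSPA5, the major ER chaperone BiP, read 8.21, 8.32 and 8.34 at 6 h, against 9.48, 9.47 and 9.32 at 2 h (-1.13 ± 0.09, adjusted p = 1.02e-08). It had been lower at 2 h too, with a DMSO mean of 10.55. PDIA4, a disulphide isomerase, changed by -0.99 ± 0.18, MANF, a secreted stress protein, by -0.57 ± 0.13, P4HB and PDIA3, further isomerases, by -0.44 and -0.44, and the lectin chaperones CANX and CALR by -0.40 and -0.33. PDIA3 and CALR were not called without the third 2 h array (adjusted p = 0.0588 and 0.22). The other probe set of PDIA4, at -0.06, was not called. XBP1, which drives part of the unfolded protein response, read 4.62, 4.41 and 4.51 at 6 h, against 3.63, 3.71 and 4.27 at 2 h (0.64 ± 0.16); it was not called after quantile normalization (0.39). HSP90B1, the ER member of the HSP90 family, changed by 0.10 (adjusted p = 0.675).

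The ER stress response element was searched in the same promoter windows on both strands, as CCAAT, any 9 bases, and CCACG. It was in 0.074% of all windows and 0.134% of measured genes. Of the 22 list members with a window, 6 held it: HSPA5, CALR and CANX among the falls, XBP1 among the rises, and HSP90B1 and PDIA6, which were not called. The 3 that fell are shown with the element in capitals, on the opposite strand in CALR. CANX has 4 annotated starts, 2 of them with the element.
HSPA5, chr9:125241344-125241593, minus strand: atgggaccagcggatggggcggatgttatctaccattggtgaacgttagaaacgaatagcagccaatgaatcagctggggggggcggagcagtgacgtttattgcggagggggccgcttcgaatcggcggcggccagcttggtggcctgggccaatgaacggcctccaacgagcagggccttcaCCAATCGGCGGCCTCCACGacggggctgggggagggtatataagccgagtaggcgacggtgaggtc
CALR, chr19:12938359-12938608, plus strand: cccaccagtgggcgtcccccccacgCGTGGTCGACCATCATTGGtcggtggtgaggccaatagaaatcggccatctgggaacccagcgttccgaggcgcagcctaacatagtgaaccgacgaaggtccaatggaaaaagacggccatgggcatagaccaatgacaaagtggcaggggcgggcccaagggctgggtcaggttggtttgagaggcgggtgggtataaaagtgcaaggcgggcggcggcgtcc
CANX, chr5:179698679-179698928, plus strand: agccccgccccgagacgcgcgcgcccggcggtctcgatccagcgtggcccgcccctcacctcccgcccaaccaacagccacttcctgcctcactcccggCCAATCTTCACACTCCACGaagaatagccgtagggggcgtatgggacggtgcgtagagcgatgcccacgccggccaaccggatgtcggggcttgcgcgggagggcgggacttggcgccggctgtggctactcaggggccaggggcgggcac
The members with the element thus included genes that fell, a gene that rose and genes that were not called. The list was made of genes of the ER stress response, so its share with the element does not bear on the change between the times.

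Of 19 measured heat shock genes 4 rose, 1 fell and 14 were not called (median 0.08). Against DMSO, 12 of the 19 were lower and 0 higher at 2 h (median -0.49), and 7 lower and 0 higher at 6 h (median -0.36). A low 2 h level was thus not particular to the genes that rose. CHORDC1, HSPH1 and HSP90AA1, which rose, had lower means at 2 h than in DMSO. Their rises were called from the same 2 h arrays, which favours a low 2 h level. CHORDC1, a partner of HSP90, had means of 7.05 in DMSO, 4.83 at 2 h and 6.66 at 6 h (1.83 ± 0.29, 6 h minus 2 h). HSPH1 had 10.27, 9.25 and 9.99, and HSP90AA1 11.42, 10.95 and 11.49. DNAJA1 rose by 0.50. HSPA9, the mitochondrial HSP70, fell by 0.92. Of the 8 subunits of the CCT chaperonin 0 were called.

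In cholesterol synthesis and uptake 6 of 18 fell and 0 rose (median -0.20). The changes were -0.98 ± 0.21 for DHCR7, -0.70 for TM7SF2, -0.56 for LSS, -0.52 for CYP51A1 and -0.41 for ACAT2, with FDPS the remaining one. Against DMSO, 12 of the 18 were already lower at 2 h (median -0.91) and 15 at 6 h (median -1.05). HMGCS1, an early enzyme, was not called (-0.19, adjusted p = 0.445). INSIG1, a sterol-sensing regulator, was not called on its brightest probe set (-0.25, adjusted p = 0.214), but its other sets were called lower, at -0.63 and -0.65. SCD, which makes monounsaturated fatty acids, read 7.75, 7.77 and 7.8 at 6 h, against 8.99, 8.86 and 8.48 at 2 h (-1.01 ± 0.13, adjusted p = 5.84e-06), and was the larger of 2 falls among 12 fatty acid genes. FADS2, a desaturase, was the other (-0.47), not called without the third 2 h array or after quantile normalization.

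In glycolysis 5 of 20 fell and 0 rose, and 2 of 20 fell without the third 2 h array. ALDOA changed by -0.48 ± 0.09, GPI by -0.54, TPI1 by -0.43, PKM by -0.65 and the glucose carrier SLC2A3 by -0.50, on 1 of its 5 probe sets. The last 3 were not called without that array. The other probe sets of PKM, at 0.10 and -0.08, were not called. In DNA replication 8 of 36 fell and 1 rose in DHL4 (median -0.24), and 10 fell and 0 rose in DHL6 (median -0.38). The DHL4 falls numbered 5 without the third 2 h array and 15 after quantile normalization. PCNA, the sliding clamp of the replication fork, read 9.59, 9.69 and 9.77 at 6 h, against 10.34, 10.31 and 10.36 at 2 h (-0.65 ± 0.12, adjusted p = 0.000607), and changed by -0.55 ± 0.12 in DHL6. CDC6, which licenses origins, changed by -1.18 ± 0.26, RFC2, of the clamp loader, by -0.61 and MCM4, of the replicative helicase, by -0.64, the last not called without the third 2 h array. GINS1, a helicase cofactor, was the member that rose (0.66, not called without that array).

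Mitotic genes rose. Of 36 measured, 14 rose and 1 fell in DHL4 (median 0.38), and 11 rose and 1 fell without the third 2 h array; in DHL6, 3 rose and 1 fell (median 0.07). The test of the difference called 6 higher and 1 lower in DHL4. PSRC1, a spindle protein, read 6.46, 6.24 and 6.53 at 6 h, against 5.45, 4.56 and 4.25 at 2 h (1.65 ± 0.25, adjusted p = 7.95e-05). HMMR, a spindle assembly factor, read 9.05, 8.78 and 9.0 at 6 h, against 7.95, 7.97 and 7.76 at 2 h (1.05 ± 0.14, adjusted p = 1.61e-05). NEK2, a kinase of the centrosome, changed by 1.19 ± 0.23, KIF14, a motor of cytokinesis, by 1.06 ± 0.18, CCNB2, a mitotic cyclin, by 0.88 ± 0.16, and CENPF, a kinetochore protein, by 0.54. KIF20A rose by 0.95 but was not called without the third 2 h array. MKI67, the proliferation marker, was the member that fell (-0.62 ± 0.11, adjusted p = 0.000287); the mean of its 4 probe sets changed by -0.25 and was not called.

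The largest rises of single genes had little in common by function. GSDME, a gasdermin that forms pores in dying cells, read 6.89, 6.7 and 6.76 at 6 h, against 4.48, 5.2 and 3.76 at 2 h (2.3 ± 0.24, adjusted p = 5.73e-07), 4.94-fold higher. VPREB1, a chain of the surrogate light chain of precursor B cells, read 6.04, 5.03 and 6.07 at 6 h, against 3.44, 3.61 and 4.04 at 2 h (2.01 ± 0.25). In both genes the groups did not overlap, though the 2 h arrays of GSDME and the 6 h arrays of VPREB1 were spread over more than 1 log2 unit. PTPRE, a receptor-type tyrosine phosphatase, changed by 1.97 ± 0.27, and TRAF5, an adaptor of TNF receptors, read 6.67, 6.33 and 6.57 at 6 h, against 4.52, 4.27 and 5.0 at 2 h (1.93 ± 0.24).

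NOL4 changed by 1.92 ± 0.18, the non-coding RNA LINC00341 by 1.88 ± 0.24, SPA17, a sperm surface protein, by 1.88 ± 0.18, and RUFY3, an adaptor of lysosome transport, by 1.83 ± 0.20. The histone gene H2BC12, one of a family of near-identical copies whose signals are uncertain, changed by 1.82 ± 0.20. SP110, an interferon-induced nuclear body protein, changed by 1.8 ± 0.15, LRIG1, a brake on receptor kinases, by 1.79 ± 0.17, LPP, an adhesion protein, by 1.78 ± 0.27, YPEL5 by 1.77 ± 0.30, and JADE2, a histone acetylation cofactor, by 1.75 ± 0.17. The 6 h and 2 h arrays overlapped in none of the 15 largest rises, as the naming rule required. In LPP the third 2 h array was far below the others (6.29, 6.31 and 4.66), and the change was 1.23 without it. For genes with several probe sets the mean of the sets gave less: 1.06 for JADE2, 1.05 for RUFY3, 1.19 for H2BC12, 1.15 for SP110 and 0.97 for LPP.

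Several rises began from a 2 h level below DMSO. GSDME had means of 6.0 in DMSO, 4.48 at 2 h and 6.79 at 6 h, and TRAF5 of 6.19, 4.59 and 6.53. TXNIP, a thioredoxin-binding protein that FOXO factors and glucose sensors induce, had 7.23, 5.65 and 7.24; NOL4 and LINC00341 followed the same course. In all 5 the 2 h level was called lower than DMSO, and the 6 h level was not called different from DMSO. All but TXNIP were picked as large rises from the same 2 h arrays, which favours a low 2 h level. DMSO had 2 arrays without a time in the labels, so the levels are given side by side only. Other rises began from a 2 h level near DMSO. RUFY3 had means of 5.47, 5.55 and 7.38, LRIG1 of 4.51, 4.54 and 6.32, and SPA17 of 3.86, 3.61 and 5.48.

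**Figure D4:**
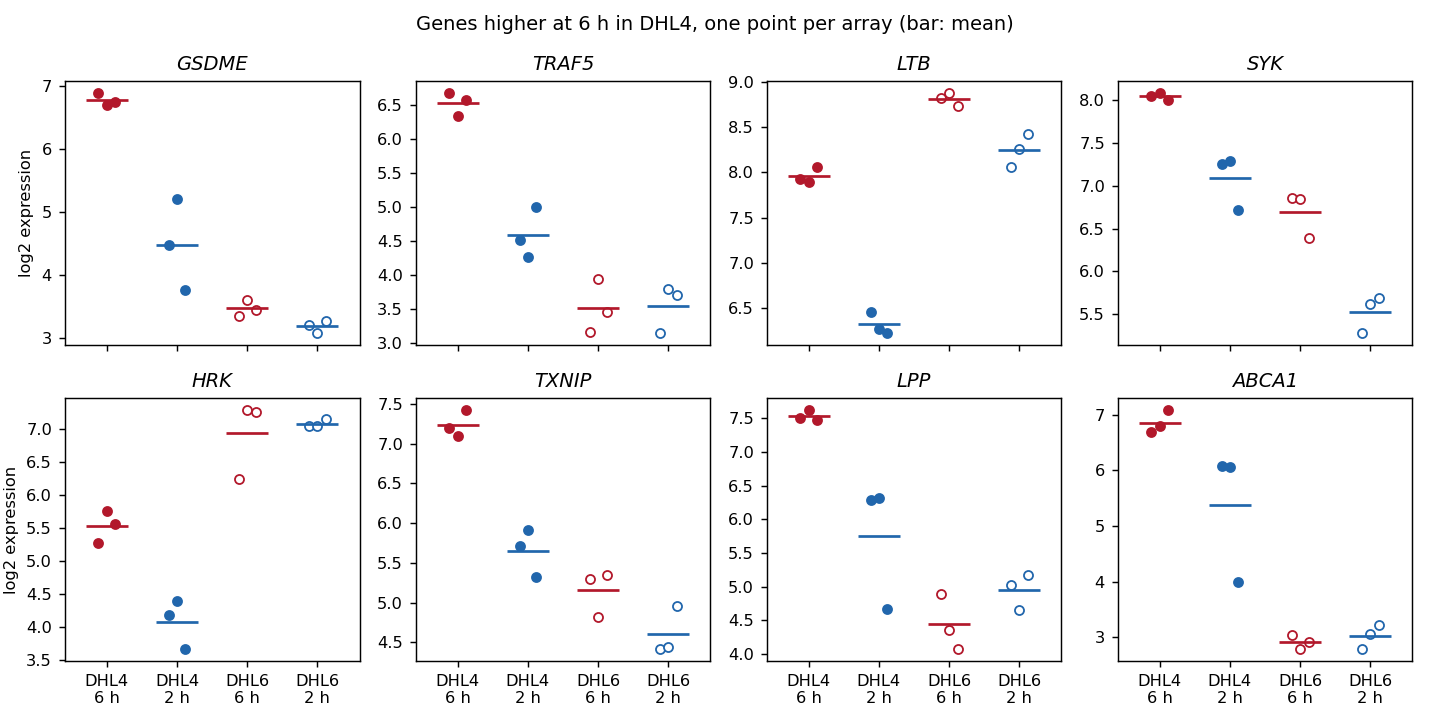
Log2 expression of 8 genes that were higher at 6 h than at 2 h in DHL4, 1 point per array and a bar for the mean of 3, in DHL4 (filled) and DHL6 (open). The third 2 h array of DHL4 is the lowest point at 2 h for 7 of the genes, TRAF5 being the exception, and lies far below the others in LPP and ABCA1.

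FOXO targets were among the lists with the most rises. Of 29 measured 11 rose and 1 fell in DHL4 (median 0.37), and 8 rose and 0 fell without the third 2 h array, while 0 were called in DHL6. Over all genes 8.37% rose and 3.3% fell in DHL4, and 4.46% were called in DHL6. TXNIP read 7.2, 7.1 and 7.43 at 6 h, against 5.71, 5.91 and 5.32 at 2 h (1.59 ± 0.16, adjusted p = 2.98e-07). GADD45A, a stress and growth arrest gene, read 9.86, 9.91 and 9.94 at 6 h, against 8.95, 8.8 and 8.44 at 2 h (1.17 ± 0.23, adjusted p = 0.00128), and was far above DMSO at both times (6.23 in DMSO). CITED2, a transcription cofactor, changed by 1.13 ± 0.21, RBL2, a pocket protein of quiescent cells, by 1.09 ± 0.15, and PIK3IP1, an inhibitor of PI3K, by 0.97 ± 0.22. PDK4, a kinase that restrains pyruvate oxidation, was the member that fell. FOXO1 itself rose by 0.53 ± 0.12 (adjusted p = 0.00298). CDKN1B, which encodes the inhibitor p27, read 5.16, 5.54 and 5.2 at 6 h, against 5.04, 4.33 and 4.19 at 2 h, and missed the threshold (0.78 ± 0.26, adjusted p = 0.0534).

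Among the parts of the B-cell receptor pathway 5 of 27 rose and 0 fell, beside 8.37% and 3.3% of all genes. SYK, the target of R406, read 8.05, 8.08 and 8.01 at 6 h, against 7.26, 7.29 and 6.71 at 2 h (0.96 ± 0.17, adjusted p = 0.000447), and both of its probe sets were called. The third 2 h array was the lowest, and without it the change was 0.77 (adjusted p = 0.00687). SYK rose in DHL6 as well (1.17 ± 0.17, adjusted p = 0.000151). PRKCB, the protein kinase C of the receptor pathway, changed by 1.21 ± 0.23, PIK3CD, the PI3K catalytic subunit of leukocytes, by 0.61 ± 0.12, and BLK, a SRC family kinase, by 0.46 ± 0.11. The other probe sets of PRKCB (0.81), PIK3CD (0.07) and BLK (0.31) were not called. CD72, an inhibitory coreceptor, was called at 0.50, but neither without the third 2 h array nor after quantile normalization. PTPN6, a phosphatase that damps the receptor, was low at both times (3.89 at 6 h and 3.54 at 2 h, against 6.17 in DMSO) and was not called (0.35, adjusted p = 0.35).

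Of the genes of the germinal centre, the site where B cells mutate their receptors, 5 of 15 rose and 0 fell. Over all genes 8.37% rose and 3.3% fell. MME, the surface enzyme CD10, read 9.48, 9.45 and 9.41 at 6 h, against 8.53, 8.51 and 8.38 at 2 h (0.97 ± 0.11, adjusted p = 2.00e-06). SPIB, an ETS transcription factor, changed by 0.89 ± 0.16, ELL3 by 0.50, and POU2AF1, a coactivator of immunoglobulin genes, by 0.44 ± 0.08. BCL6, the repressor that defines the germinal centre, rose by 0.48 ± 0.12 (adjusted p = 0.0108) and was not called without the third 2 h array (0.39, adjusted p = 0.0882). LMO2, another germinal centre gene, was low at both times and not called (0.27, adjusted p = 0.356). Of 14 general B-cell genes 5 rose and 1 fell, the fall being MS4A1, and TCF3, a transcription factor of early B cells, rose by 0.53 ± 0.10. BANK1, a B-cell scaffold, rose by 0.85 but was not called without the third 2 h array (0.55) or after quantile normalization.

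In the BCL2 family 2 of 11 death-promoting and 0 of 6 survival-promoting members were called, beside 11.7% of all genes. Lists this small cannot be told from that share. HRK, a BH3-only protein, read 5.28, 5.75 and 5.56 at 6 h, against 4.19, 4.4 and 3.66 at 2 h (1.45 ± 0.23, adjusted p = 0.000106). Its other probe sets, at 0.11 and 0.17, were not called, and the mean of the 3 sets changed by 0.57. BNIP3, of mitophagy, rose by 0.64 but was not called without the third 2 h array or after quantile normalization. BCL2L11, which encodes BIM, changed by 0.37 ± 0.18 (adjusted p = 0.204).

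LTB, which encodes lymphotoxin beta, had the lowest p of the named rises. It read 7.93, 7.89 and 8.06 at 6 h, against 6.45, 6.27 and 6.22 at 2 h (1.65 ± 0.10, adjusted p = 1.25e-10), with all 6 h arrays more than 1 log2 unit above all 2 h arrays, and it rose by 0.57 ± 0.10 in DHL6. In the TNF family as a whole 5 of 17 rose and 2 fell. TNFRSF21, a death receptor, changed by 0.75 ± 0.13, and its other probe set, at -0.10, was not called. CD27 changed by 0.54 ± 0.12, and TNFRSF8, the receptor CD30, by -0.51. CD40, a receptor for T cell help, changed by -0.47 ± 0.14, but its probe sets disagreed: another was called lower (-0.51), 1 higher (0.70) and 1 was not called (-0.18). TNFSF8, the ligand of CD30, rose by 0.75 but was not called after quantile normalization. Of 30 interferon response genes 6 rose and 0 fell, beside 8.37% and 3.3% of all genes. Among the 6 were IFI16, a DNA sensor (1.08 ± 0.10, adjusted p = 6.08e-08), SP140 (0.86 ± 0.18) and TRIM22 (1.28 ± 0.15). OAS1 rose by 1.04 but was not called without the third 2 h array or after quantile normalization.

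Of 20 genes of TGF-beta, SMAD and ID proteins 6 rose and 0 fell in DHL4, and 3 rose without the third 2 h array. For this list and the next, the shares over all genes were 8.37% higher and 3.3% lower. ID3, an inhibitor of E proteins, read 7.73, 7.77 and 7.43 at 6 h, against 6.79, 6.62 and 6.74 at 2 h (0.92 ± 0.19, adjusted p = 0.00156), whereas it fell in DHL6 (-0.90 ± 0.19), and the lines differed by 1.82 ± 0.26 (adjusted p = 8.92e-05). SKIL, a SMAD repressor, changed by 1.32 ± 0.23, and SMURF1, a ubiquitin ligase, by 0.95 ± 0.16; the means of their probe sets, 0.33 and 0.19, were not called. ID2 (0.91) and SMURF2 (1.11) were called as deposited but not without the third 2 h array, where they changed by 0.48 and 0.72; ID2 was not called after quantile normalization either. In autophagy and lysosome genes 5 of 27 rose and 0 fell, and 3 rose without the third 2 h array; NBR1, a receptor for cargo, rose by 1.11 ± 0.19, RUBCNL by 0.58 ± 0.11 and TFEB, the master factor of lysosome genes, by 0.84 ± 0.17. The proteases CTSB (0.81) and CTSA (0.60) were not called without the third 2 h array or after quantile normalization. ABCA1, a cholesterol exporter, read 6.68, 6.79 and 7.09 at 6 h, against 6.09, 6.06 and 4.0 at 2 h (1.47 ± 0.35); without the third 2 h array, the low one, the change was 0.78. ABCG1, a related exporter, rose by 0.82, a call lost without that array and after quantile normalization.

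**Figure D5:**
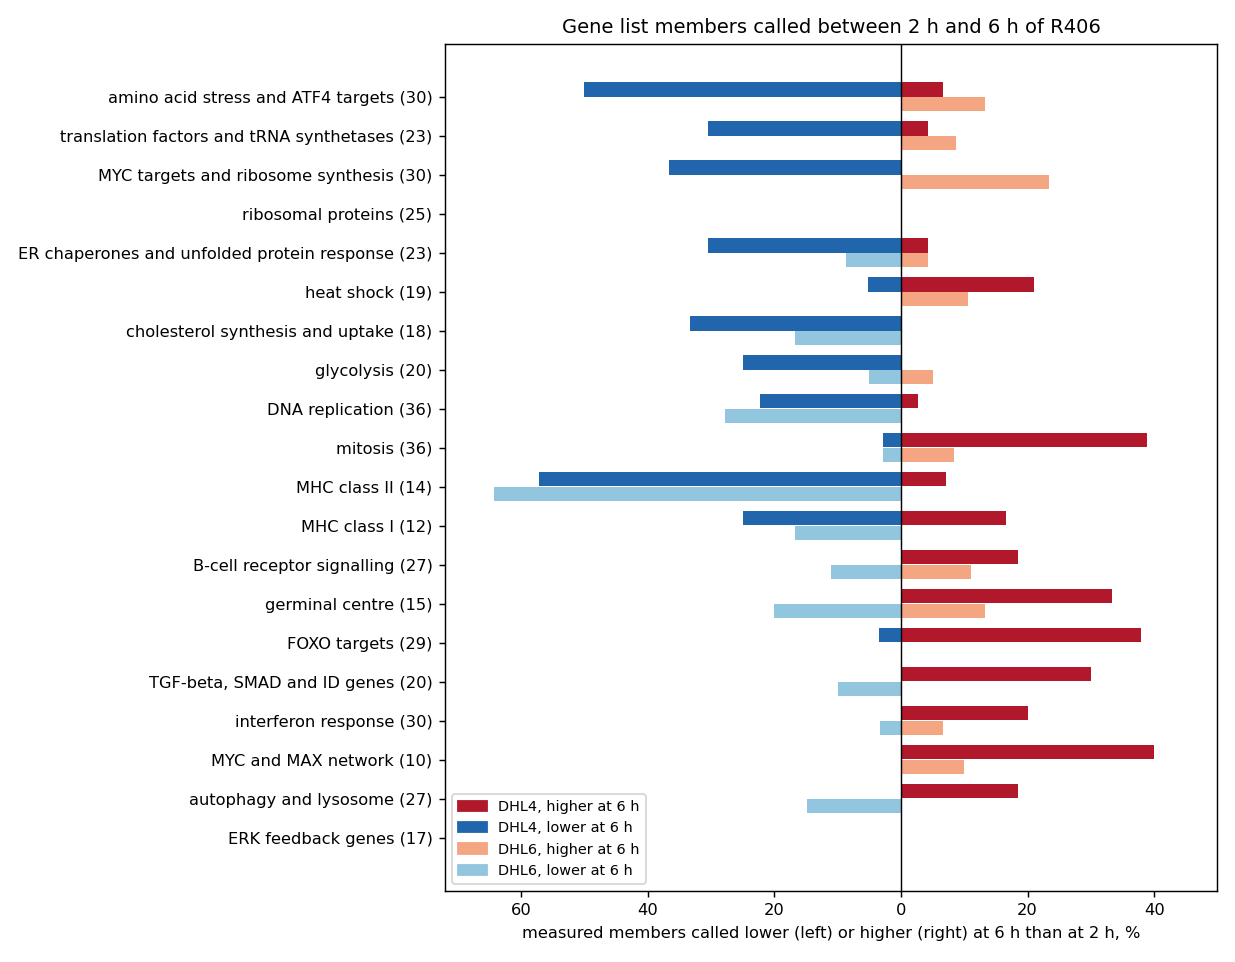
Share of measured members of 20 gene lists (number in brackets) called higher (right of 0) or lower (left of 0) at 6 h than at 2 h of R406, in percent, with DHL4 above DHL6 in each pair of bars. The longer bar of the amino acid, tRNA and ribosome synthesis lists points left in DHL4 and right in DHL6, whereas for MHC class II and DNA replication it points left in both. In DHL4 all of these lists but ribosome synthesis also have a shorter bar to the right.

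Of the calls higher at 6 h, 56 were shared between the lines, 5.50% of those in DHL4 and 24.5% of those in DHL6. Over all genes 8.37% were called higher in DHL4 and 1.88% in DHL6. Of the calls lower at 6 h, 48 were shared, 12% of those in DHL4 and 15.3% of those in DHL6, beside 3.3% and 2.57% of all genes. Opposite calls were made for 36 genes higher in DHL4 and lower in DHL6, and for 20 genes lower in DHL4 and higher in DHL6.

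Besides ATF5, WARS1, PSAT1 and LIMA1, the largest differences with DHL4 lower were in MARCKS and SLC29A1. MARCKS, an actin-linked substrate of protein kinase C, read 2.19, 2.59 and 2.46 at 6 h, against 2.83, 2.69 and 3.92 at 2 h in DHL4, and 7.97, 7.58 and 7.55 at 6 h, against 5.59, 4.96 and 5.47 at 2 h in DHL6. It was near the lower end of the scale and not called in DHL4, and rose by 2.36 ± 0.47 in DHL6, so that the lines differed by -3.1 ± 0.67 (adjusted p = 0.0048). SLC29A1, a nucleoside carrier, changed by -0.77 in DHL4 (not called without the third 2 h array, nor on its other probe set, at 0.21) and 1.53 in DHL6 (difference -2.3 ± 0.28, adjusted p = 1.44e-05).

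Among differences with DHL4 higher, SECISBP2L, a paralog of a selenoprotein synthesis factor, changed by 1.72 ± 0.23 in DHL4 and -0.90 in DHL6 (difference 2.62 ± 0.32, adjusted p = 1.44e-05). Its other probe sets changed by -0.12 and -0.05 in DHL4, and the mean of its 3 sets by 0.52. LPP differed by 2.29 ± 0.38, LY9, a SLAM family receptor, by 2.27 ± 0.38, TRIM22 by 2.26 ± 0.22, CELF2, an RNA-binding protein, by 2.2 ± 0.30, and SATB1, a chromatin organiser of lymphocytes, by 2.09 ± 0.28. SATB1 read 7.82, 7.77 and 7.78 at 6 h, against 6.8, 6.36 and 5.71 at 2 h in DHL4 (1.5 ± 0.19), a rise that went on from DMSO (4.67). LY9 and CELF2 fell in DHL6 (-1.47 and -1.58) and were not called in DHL4. BACH2, a repressor of plasma cell fate that was already higher at 2 h than in DMSO, was higher by 0.39 at 6 h in DHL4 without a call on its brightest probe set (adjusted p = 0.0828), while its other set was called (0.72); it fell by 1.60 in DHL6; the lines differed by 2.0 ± 0.21 (adjusted p = 1.26e-06).

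Some genes known from R406 or receptor signalling were not called between the times. CXCR4, a chemokine receptor, read 9.95, 10.09 and 10.04 at 6 h, against 9.96, 9.96 and 9.93 at 2 h (0.08, 95% interval -0.17 to 0.32), far above its DMSO mean of 6.51. Of the 17 genes of ERK feedback 0 were called; DUSP6, which dephosphorylates ERK, changed by 0.41 (adjusted p = 0.0611). EGR1, an early response factor (-0.39, adjusted p = 0.443), CCND2, a G1 cyclin (-0.15, 0.623), KLF2 (0.09, 0.803) and CYP1A1, a target of the aryl hydrocarbon receptor (-0.05, 0.942), lay near the lower end of the scale, where a fall could not show. KMO, an enzyme of tryptophan breakdown, was 4.32 at 6 h and 4.64 at 2 h, below 6.67 in DMSO, and was not called (-0.32, adjusted p = 0.691).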

How the data were processed

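Gene expression was measured on Affymetrix arrays in DHL4 and DHL6 lymphoma cells under R406 or DMSO. The authors deposited log2 expression per probe set, made with RMA, per the submitters' processing notes. No source used here gives its version or the set of arrays it was run on. Values ran from 1.99 to 13.5. RMA draws dim probe sets together, so changes of dim genes are understated. Precision is limited by the number of arrays.

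Of 22277 probe sets, 19724 had a single gene symbol in the platform annotation (19707 matched by Entrez identifier), 568 several, 1923 none listed, and 62 were controls. Each gene was represented by its brightest single-symbol probe set, giving 12165 genes (4505 with more than 1 set). Group means of all 29 arrays in 10 groups were fitted with limma 3.58.1 (lmFit, eBayes) in R 4.3.3, with 19 residual and 5.05 prior degrees of freedom; p-values were adjusted over 12165 genes (Benjamini-Hochberg) per contrast and called below 0.05. Contrasts were 6 h minus 2 h in each line, their difference, and 2 h or 6 h minus DMSO in DHL4. Tables and figures used Python 3.11.15, pandas 2.3.3, numpy 2.4.6 and matplotlib 3.10.9.

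Named genes were the 15 largest rises and falls among called genes without overlap of arrays, at most 5 called members of each of 44 gene lists (819 genes, 730 measured, of which 93 rose and 90 fell), the 6 largest called differences between lines each way, and a fixed set of genes tied to SYK. Further genes whose values had been seen were added: AARS1, ASNS, ATF4, CALR, CANX, CARS1, CCNB2, CD79A, CD79B, CENPF, CHAC1, CIITA, CTH, DDIT3, EIF2S2, EIF5, FDPS, FOXO1, GARS1, HARS1, HLA-DRA, HSP90B1, KARS1, LARS1, MKI67, MTHFD2, NARS1, NPM1, P4HB, PAX5, PDIA6, PDK4, PTPN6, QARS1, RARS1, RFX5, SARS1, SHMT2, SLC1A5, SLC38A2, SLC3A2, SLC7A1, TARS1, TRIB3 and VARS1. The members, lists and tests were chosen with earlier results of these data known. Lists are described by counts and medians, with no test.

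Alternatives were the compared groups alone, the replicate number as a block, other uses of probe sets, quantile normalization, median centring, a filter on dim genes, another variance model and leaving out each array. Array weights, leaving out both compressed arrays, and quantile normalization without the third 2 h array were added after seeing the data. The fit was tested on simulated data of 12165 genes for 6 h minus 2 h in DHL4: 39 of 100 genes changed by 0.5 and 91 of 100 changed by 1 (log2) were recovered, with 8 false calls. The simulation gave each gene the same normal spread on every array and held no compressed array. It therefore does not show recovery or false calls with an array such as the third at 2 h. Promoters are the 250 bases before RefSeq starts on GRCh38.p14.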

Additional observations from a re-analysis of the deposited data

Results flagged for a closer look

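The change between 2 h and 6 h differed between the lines by the test of the difference (DHL4 minus DHL6) for 1051 genes, of which 15 named ones are given here. Those with DHL4 lower were ATF5 (-3.19), MARCKS (-3.1), WARS1 (-2.45), PSAT1 (-2.37), SLC29A1 (-2.3), LIMA1 (-2.22), CBS (-2.09), EIF4EBP1 (-2.05) and SLC7A5 (-1.94). Those with DHL4 higher were SECISBP2L (2.62), LPP (2.29), LY9 (2.27), TRIM22 (2.26), CELF2 (2.2) and SATB1 (2.09). Adjusted p-values ran from 2.49e-08 for WARS1 to 0.0048 for MARCKS. With both compressed arrays left out the differences were -2.88 for ATF5, -2.65 for WARS1, -2.0 for EIF4EBP1, 1.56 for LPP and 1.78 for SATB1, in the same direction. The cause of these differences was not tested.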

How the results depend on the processing

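With single arrays left out, the 1419 calls of DHL4 ranged from 799 (without the third 2 h array) to 1510, with 894 without the first 6 h array. Calls ranged from 350 to 535 for the 542 of DHL6 and from 619 to 1225 for the 1051 of the difference between lines. Listed genes ranged from 66 to 101 rises and 63 to 78 falls, and the amino acid list from 14 to 15 falls. Quantile normalization without the third 2 h array gave 829 calls in DHL4. When arrays of other groups were left out of the fit, so that fewer arrays gave the spread, DHL6 had 119 calls and the difference 556. Leaving out both compressed arrays gave 438 calls for the difference. Lower calls in DHL4 numbered 623 after quantile normalization, against 401 as deposited, and higher calls in DHL6 395, against 229. In none of the settings but the mean of probe sets did a DHL4 call turn its sign; there 10 did. Of the 181 named genes that were called, 139 stayed called in the same direction without the third 2 h array, 162 after quantile normalization, 151 when other groups were left out of the fit, and 165 with the mean of probe sets. Of the 90 with more than 1 probe set, 33 had all sets called the same way and 34 had no set but the brightest called that way.

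The replicate number as a block gave 1423 calls in DHL4 (1027 higher, 396 lower), 555 in DHL6 and 1071 for the difference, with 93 rises and 88 falls among listed genes and 15 falls in the amino acid list. EIF2S2, FADS2 and PDIA3 lost their call under the block. Deviations of same-numbered arrays at 6 h and 2 h correlated at 0.033, -0.09 and 0.0199 in DHL4. In DHL6 they correlated at -0.177, -0.204 and -0.441. A compressed array in each line enters these deviations, so whether the numbers pair the arrays cannot be decided from them.

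The named genes that changed sign were all uncalled, and the cause was not tested. After quantile normalization CEBPG was at -0.1768, CYP1A1 at 0.0129, HSP90B1 at -0.0443 and TRIB3 at -0.2384. With the third 2 h array also left out, BCL2L11 was at -0.0098, CEBPG at -0.5518, HSP90B1 at -0.0553, PAX5 at 0.0922 and TRIB3 at -0.2239. With both compressed arrays left out, CEBPG was at -0.4244, PAX5 at 0.049 and TRIB3 at -0.0711. With array weights CEBPG was at -0.1937 and TRIB3 at -0.0315, and the mean of probe sets put KMO at 0.072. With single arrays left out, CEBPG ranged from -0.4244 to 0.352, CYP1A1 from -0.0919 to 0.0445, DDIT3 from -0.3322 to 0.0022, MYC from -0.0545 to 0.0215, PAX5 from -0.27 to 0.049 and TRIB3 from -0.1072 to 0.0877. Genes near the lower end of the scale have little signal over background, which limits what a fall can show.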

Other observations

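Among groups not yet described, regulators of chemotaxis held 3 rises and 1 fall of 16 measured in DHL4: RGS19, a brake on G protein signals, rose by 0.71 ± 0.11, S1PR4, a sphingosine 1-phosphate receptor of lymphocytes, by 0.62 ± 0.15, and ARHGEF1 by 0.50 (not called without the third 2 h array), while RGS2 changed by -0.81. RGS19 was partway back to DMSO, with means of 8.3 in DMSO, 6.18 at 2 h and 6.89 at 6 h. Of 14 hypoxia genes 4 rose and 0 fell, with KDM3A, a histone demethylase, at 1.16 ± 0.15 and P4HA2, a collagen hydroxylase, at 1.2 ± 0.20. BNIP3 and MXI1 were the others, and only 2 of the 14 rose without the third 2 h array. Of 15 brakes of PI3K and regulators of mTORC1, 4 rose and 1 fell; the fall was that of DEPTOR, an mTOR inhibitor, at -0.90 ± 0.13, and PHLPP1, a phosphatase of AKT, rose by 0.92 ± 0.21 (its other probe set, at -0.23, was not called). TSC1, an mTORC1 inhibitor, rose by 0.56, a call lost without the third 2 h array and after quantile normalization. Of 22 immediate early genes 1 rose and 3 fell, SRF at -0.97 ± 0.17, IER2 at -0.49 ± 0.11 and EGR3 at -0.56. The other probe set of SRF, at -0.13, was not called. SRF and IER2 were also lower at 2 h than in DMSO. IER5 rose by 0.61, a call lost without the third 2 h array and after quantile normalization.

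Other lists held few calls, to be read beside the 8.37% of all genes that rose and the 3.3% that fell. Of 20 NF-kB targets 2 rose (BIRC2, 0.51, and PIM2, 0.50) and CD40 fell; of 19 p53 targets PPM1D rose (0.98); of 23 genes of oxidative phosphorylation NDUFV1 (-0.44) and CYC1 (-0.28) fell. All but CD40 lost their call without the third 2 h array. Of 13 NRF2 targets TKT fell (-0.60). In a list of 9 genes of the aryl hydrocarbon receptor, its partner and its targets, TIPARP rose (0.83). ARNT, the partner of the receptor, fell (-0.51, on 1 of 3 probe sets). Of 18 chemokines and activation markers LTB rose and CD86 (-0.85, on 1 of 3 probe sets) and CD40 fell, and of 11 plasma cell genes XBP1 and CD27 rose and JCHAIN fell (-0.33). Of 20 replication-dependent histones H2BC12 and H2AC6 (0.78) rose, of 13 G1 regulators RBL2 rose and CDK4 fell, of 16 short-lived transcription regulators CITED2 and KLF13 (0.75) rose, of 6 sterol efflux genes ABCA1 and ABCG1 rose, and of 11 T cell markers IL7R rose (0.54). ARNT, CD86, JCHAIN, H2AC6, KLF13 and IL7R were not called without the third 2 h array. H2AC6, KLF13 and PIM2 were not called after quantile normalization.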
